A study of Homo sapiens with 6 samples.

Results

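The genes described here are 10 noncoding hosts of small nucleolar RNAs (snoRNAs): SNHG1, SNHG5, SNHG6, SNHG7, SNHG8, SNHG12, SNHG15, SNHG16, GAS5 and ZFAS1. They were chosen by name with earlier results of these data known, so their count of calls is a description and not an independent test. All 10 were found among the 58721 rows of the count table and passed the filter on low counts that left 20713 genes. The libraries are polyadenylated RNA from A549, a long-established line from a human lung adenocarcinoma. By their labels, 3 libraries have overexpression of wild-type KAT8 (WT) and the other 3 of KAT8 R98W, an amino acid substitution in the histone acetyltransferase KAT8 (MOF). The labels name no promoter for the overexpression, no clone and no treatment, and nothing in them tells if replicates came from separate cultures, so each p-value rests on library-to-library spread that may be technical.

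A snoRNA host gene is transcribed and spliced like an mRNA gene, and its introns are trimmed to snoRNAs, which guide the chemical modification of ribosomal RNA. Box C/D snoRNAs guide methylation of the ribose, and box H/ACA snoRNAs guide conversion of uridine to pseudouridine. Many host transcripts begin with a 5′ terminal oligopyrimidine (TOP) tract, a C followed by more pyrimidines, which they share with the mRNAs of ribosomal proteins and through which mTOR and LARP1 control translation. The spliced noncoding RNA has no long reading frame, yet ribosomes can load onto it, and nonsense-mediated decay (NMD) then removes it, so that such RNAs are known to accumulate when translation or NMD is blocked.

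Transcripts with a TOP tract are annotated for 8 of the 10 genes, among many other starts. The lines below give the first 30 bases of 1 annotated transcript of each gene (GENCODE release 29, GRCh38, 5′ to 3′), with the opening run of pyrimidines in capitals. The transcript was the one beginning with C nearest to the RefSeq start, if within 100 bases of it. GAS5 has none that near and SNHG6 and SNHG15 had no RefSeq promoter entry, so for these the C start shared by most transcripts was taken, with ties going to the longest pyrimidine run. Since only starts with C were taken, the lines show where a tract lies and not how common it is.
GAS5 at chr1:173867960-173867989, minus strand: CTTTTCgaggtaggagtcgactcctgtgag
SNHG16 at chr17:76557769-76557798, plus strand: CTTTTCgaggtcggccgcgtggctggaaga
SNHG5 at chr6:85678704-85678733, minus strand: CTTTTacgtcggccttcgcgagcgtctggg
SNHG8 at chr4:118278758-118278787, plus strand: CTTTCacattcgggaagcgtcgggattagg
ZFAS1 at chr20:49278642-49278671, plus strand: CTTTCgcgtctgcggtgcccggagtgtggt
SNHG12 at chr1:28581844-28581873, minus strand: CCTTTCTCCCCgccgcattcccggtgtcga
SNHG7 at chr9:136728155-136728184, minus strand: CTCTgcgtgcgccggaggctgccgtggcgg
SNHG1 at chr11:62855856-62855885, minus strand: CTCatttttctactgctcgtggtaagtggc
SNHG15 at chr7:44986541-44986570, minus strand: CCgccatcctgggccccacgtgttgcctga
The start of SNHG6, not printed here, opens with a run of 7 pyrimidines. GAS5 and SNHG16 open with the same 11 bases, CTTTTCGAGGT, and the next longest shared opening is 5 bases.

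With a TOP start defined as C followed by at least 4 more pyrimidines, the RefSeq start itself had one in 3 of 8 hosts, against 4.07% of all RefSeq promoters and 60.3% of 78 ribosomal protein promoters. Counting every annotated start, 8 of the 10 genes had a TOP start, against 13.2% of all tested genes, 6.41% of tested long noncoding RNA (lncRNA) genes and 83.5% of 79 ribosomal protein genes. Genes with many annotated starts have more chances to hold one, and by distinct starts the shares were 11.6% of 95 for the hosts, 2.53% for all tested genes and 13.5% for the ribosomal protein genes. The TOP start counted for SNHG1 is another annotated start, 406 bases from its RefSeq start. At the RefSeq start the SNHG1 tract stops after 3 pyrimidines. SNHG7 and SNHG15 had no TOP start by this definition. These are letters in an annotation and not measured start sites.

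Some of the promoters share a further sequence that the choice of genes did not use. RefSeq promoter windows (GRCh38.p14) were at hand for 8 of the 10 genes, and in 5 of these the letters TATAA, the core of a TATA box, lay within 60 bases before the start on the gene's own strand. Among all 35116 RefSeq promoters 5.13% held TATAA there, as did 8.97% of 78 ribosomal protein promoters, and with both strands searched the shares were 5 of 8 and 6.69%. The motif was searched after the sequences had been seen, and the TOP tract was the other motif searched. In the lines below TATAA is in capitals and each stretch runs to 20 bases past the RefSeq start.
SNHG5 at chr6:85678714-85678768, minus strand: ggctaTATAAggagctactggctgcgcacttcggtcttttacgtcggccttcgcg
SNHG7 at chr9:136728165-136728219, minus strand: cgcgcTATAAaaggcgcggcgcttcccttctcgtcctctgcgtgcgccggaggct
SNHG8 at chr4:118278723-118278781, plus strand: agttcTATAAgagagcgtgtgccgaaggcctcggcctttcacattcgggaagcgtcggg
SNHG12 at chr1:28581854-28581906, minus strand: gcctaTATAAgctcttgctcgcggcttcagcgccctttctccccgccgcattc
ZFAS1 at chr20:49278608-49278661, plus strand: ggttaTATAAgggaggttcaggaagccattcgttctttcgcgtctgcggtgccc
TATAA began 28 to 34 bases before the start in these 5. SNHG1, SNHG16 and GAS5 did not hold it in the window, and the RefSeq start of GAS5 lies 1056 bases from the GENCODE start printed above. No match says only that these letters are absent from that window.

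Library totals ran from 90007121 to 110152936 counts. KAT8, the introduced gene, stood at 12.2, 195 and 184 CPM (TMM-scaled CPM, each gene's share of a library's counts) in WT replicates 1 to 3 and at 166, 196 and 236 CPM in R98W. The library labelled WT replicate 1 thus went against its overexpression label, and results are also given without it. These counts hold both the introduced KAT8 and that of the cells. Epithelial markers summed to between 7979 and 8776 CPM, most of it KRT8, KRT18 and KRT7, while EPCAM held only 3.30 to 8.29 CPM. Fibroblast markers summed to 10.1 to 14.2 CPM, nearly all COL1A1. Endothelial markers summed to at most 0.779 CPM and leukocyte markers to at most 0.102 CPM. Mitochondrial ribosomal RNA took 0.905% to 1.04% of counts in WT and 1.47% to 1.57% in R98W, and its part in the results was not tested.

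All but 1 of the host RNAs rose in R98W. By edgeR's quasi-likelihood test with Benjamini-Hochberg adjustment over all tested genes and a threshold of 0.05, 9 of the 10 were higher in R98W and 0 were lower, with SNHG16 not called. No log2 difference (log2 fold change of R98W over WT) was below 0. Over all tested genes 16.2% were higher and 18.5% lower, 34.8% in all. In the 9 called genes all R98W libraries lay above all WT libraries, as they did in 21.3% of tested genes. Log2 differences ran from 0.21 to 0.83 with a median of 0.55, while the median over all tested genes was -0.005. The summed level of the 10 genes was 493 ± 44 CPM (SD, n = 3) in WT and 719 ± 50 CPM in R98W. These levels are shares of the counted reads, so synthesis, decay and a change in the rest of the RNA cannot be told apart. When WT replicate 1 was left out, 10 were higher, against 15.2% of all tested genes.

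**Figure D1:**
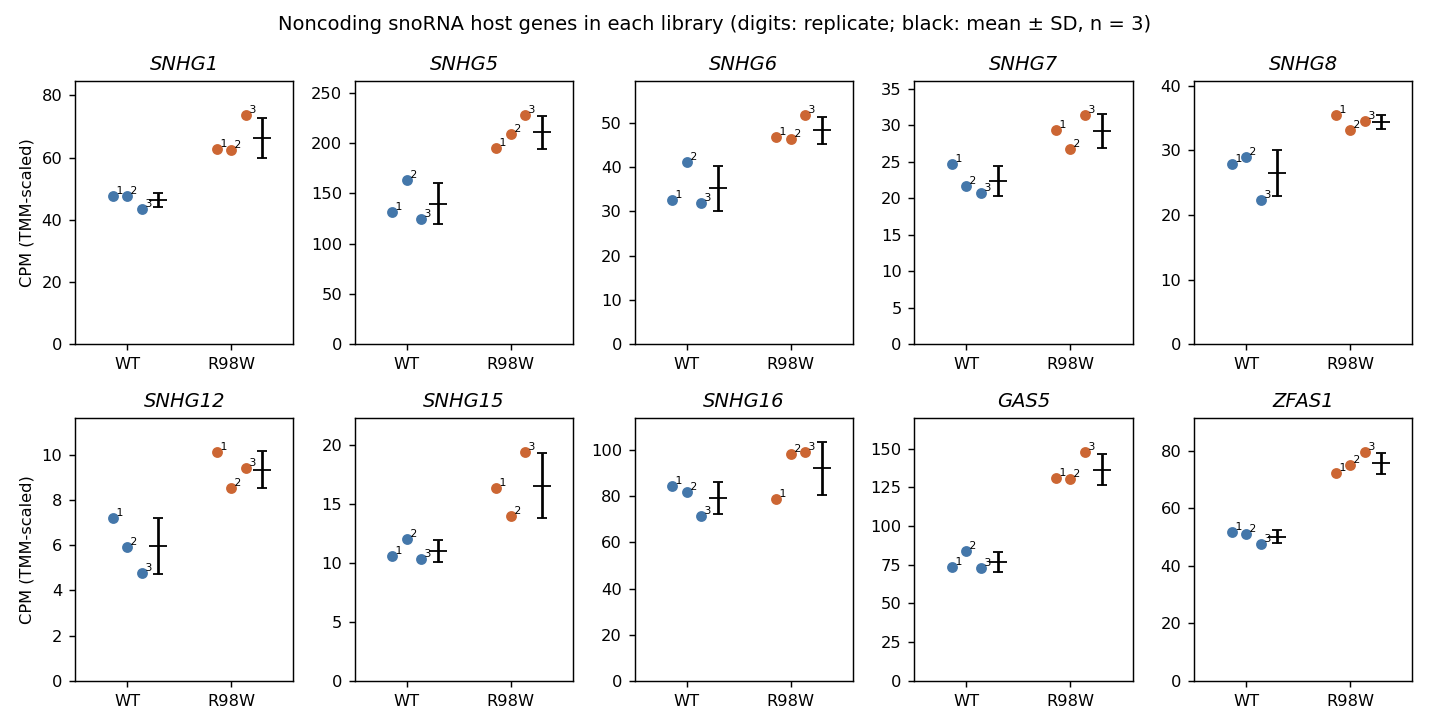
Level of each of the 10 host genes in every library, in CPM from TMM-scaled totals (vertical axes start at 0 and differ between panels); points are libraries with their replicate number, and the black mark is the mean with SD, n = 3. In 9 panels all R98W libraries lie above all WT libraries, and in the SNHG16 panel R98W replicate 1 falls among the WT libraries.

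GAS5 rose most. It hosts box C/D snoRNAs and was named for its build-up in growth-arrested cells (ENSG00000234741, chromosome 1, 173863900 to 173868882, minus strand, 29 annotated transcripts). Its level was 73.6, 83.8 and 72.6 CPM in WT replicates 1 to 3 and 131, 130 and 148 CPM in R98W replicates 1 to 3. Every R98W library was above every WT library, by a log2 difference of 0.83 (SE 0.07, edgeR adjusted p = 1.09e-07), which is 1.78-fold. By p-value GAS5 was number 128 of the 20713 tested genes. Without WT replicate 1 the log2 difference was 0.79.

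ZFAS1 and SNHG5 each rose about 1.51-fold. ZFAS1 (ENSG00000177410, chromosome 20, 49278178 to 49295738, plus strand) hosts the box C/D snoRNAs SNORD12, SNORD12B and SNORD12C and starts head to head with ZNFX1. ZFAS1 stood at 51.6, 51.1 and 47.6 CPM in WT and at 72.4, 75.1 and 79.5 CPM in R98W, a gap far wider than the spread within either group (log2 difference 0.59, SE 0.07, edgeR adjusted p = 1.90e-06). SNHG5 (ENSG00000203875, chromosome 6, 85660950 to 85678748, minus strand), host of SNORD50B, was the most abundant of the 10, also per exon length. Its libraries held 131, 163 and 125 CPM in WT and 195, 209 and 227 CPM in R98W. The SNHG5 groups did not overlap, with a log2 difference of 0.59 (SE 0.09, edgeR adjusted p = 3.28e-05).

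SNHG1, SNHG6 and SNHG16 also host named box C/D snoRNAs. SNHG1 (ENSG00000255717, chromosome 11, 62851988 to 62855914, minus strand) carries 6 named box C/D snoRNAs, among them SNORD22 and SNORD25 to SNORD28. Its level was 47.7, 47.7 and 43.6 CPM in WT and 62.9, 62.4 and 73.6 CPM in R98W, a log2 difference of 0.52 (SE 0.08, edgeR adjusted p = 3.03e-05). SNHG6 (ENSG00000245910, chromosome 8, 66921684 to 66926398, minus strand), host of SNORD87, held 32.6, 41.1 and 31.8 CPM in WT and 46.7, 46.3 and 51.7 CPM in R98W. Its groups were apart, though WT replicate 2 came within a few CPM of the R98W libraries (log2 difference 0.46, SE 0.09, edgeR adjusted p = 0.00052).

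SNHG16 (ENSG00000163597, chromosome 17, 76557766 to 76565348, plus strand), host of SNORD1A, SNORD1B and SNORD1C, is the gene whose transcript opens like that of GAS5. It stood at 84.5, 82.0 and 71.4 CPM in WT and at 78.8, 98.3 and 99.2 CPM in R98W. R98W replicate 1 lay below WT replicates 1 and 2, and the log2 difference of 0.21 (SE 0.09) did not pass the threshold at an edgeR adjusted p of 0.0585. Without WT replicate 1 it passed at 0.25 (adjusted p = 0.045) and without R98W replicate 1 at 0.32 (adjusted p = 0.00807). Without WT replicate 3 it stood at 0.14 (adjusted p = 0.333), and with expression level corrected for at 0.13 (adjusted p = 0.276). Over 15 other fits the adjusted p ran from 0.00807 to 0.333, and 4 of them called the gene higher. The ratio of GAS5 to SNHG16 counts within a library, which needs no scaling, was 0.871, 1.02 and 1.02 in WT and 1.66, 1.33 and 1.49 in R98W, so GAS5 gained on SNHG16 in each R98W library. An exact two-sided permutation test of this ratio gave p = 0.1, the smallest that 3 against 3 libraries allow, and 0.1 after adjustment over the 5 ratios computed. GAS5 and SNHG16 have the largest and smallest log2 differences of the 10 in these same data, so the separation in their ratio adds no further support.

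SNHG7, SNHG8 and SNHG15 host box H/ACA snoRNAs. SNHG15 (ENSG00000232956, chromosome 7, 44983023 to 44986961, minus strand), host of SNORA9, stood at 10.6, 12.1 and 10.4 CPM in WT and at 16.4, 14 and 19.4 CPM in R98W. The R98W libraries were all higher and also more spread, with a log2 difference of 0.59 (SE 0.11, edgeR adjusted p = 0.000373). SNHG7 (ENSG00000233016, chromosome 9, 136721366 to 136728184, minus strand), host of SNORA17A and SNORA17B, was at 24.6, 21.6 and 20.7 CPM in WT and 29.4, 26.7 and 31.3 CPM in R98W. The nearest libraries of the SNHG7 groups were about 2 CPM apart (log2 difference 0.38, SE 0.09, edgeR adjusted p = 0.00177). SNHG8 (ENSG00000269893, chromosome 4, 118278709 to 118279823, plus strand), host of SNORA24 and the shortest of the 10 by exon length, was at 27.9, 29 and 22.4 CPM in WT and 35.4, 33.2 and 34.5 CPM in R98W. Its log2 difference was 0.38 (SE 0.09, edgeR adjusted p = 0.00255), and WT replicate 3 was the low library.

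SNHG12 (ENSG00000197989, chromosome 1, 28578538 to 28583132, minus strand) hosts both kinds, with SNORD99 and 4 annotated box H/ACA entries (SNORA61, SNORA44 and SNORA16A, the last listed more than once), and has the longest pyrimidine run of the printed starts. It was the least abundant host, also per exon length, and the most variable in WT, at 7.20, 5.91 and 4.76 CPM there and at 10.1, 8.51 and 9.40 CPM in R98W. All R98W libraries were higher, by a log2 difference of 0.65 (SE 0.13, edgeR adjusted p = 0.000835). It rests on 452 to 993 counts per library, where SNHG5 has 11832 to 23995.

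**Figure D2:**
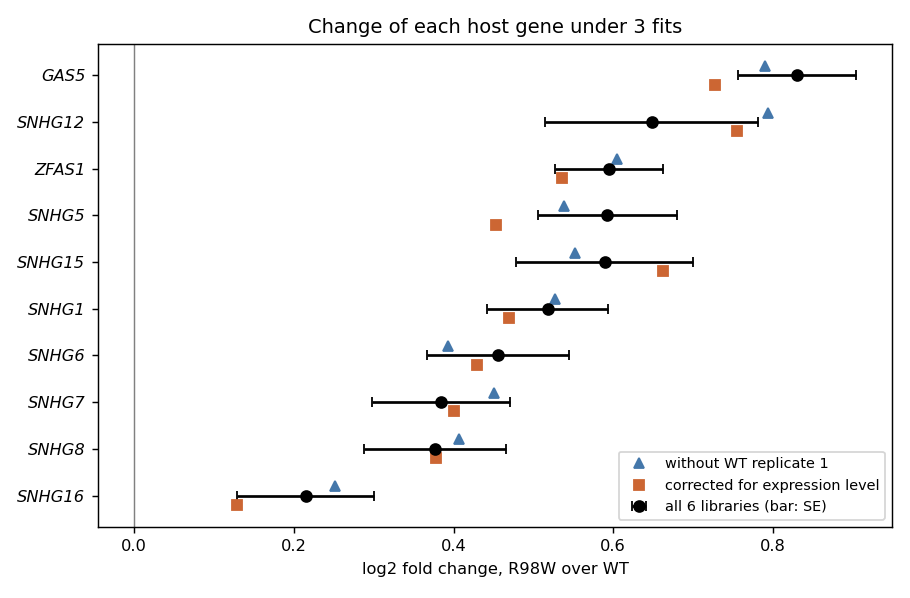
Log2 fold change of R98W over WT (horizontal axis) for each host gene in the fit of all 6 libraries (black, bar SE), without WT replicate 1 (triangles) and after correction for expression level (squares). GAS5 at 0.83 and SNHG16 at 0.21 are the ends of the range, and all points lie above 0.

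Adjusting for transcript length changes the order of the hosts. Per kilobase of annotated exon, the WT levels in RPKM (CPM per kilobase) were 49.7 ± 7.3 (SD, n = 3) for SNHG5, 28.6 ± 3.9 for SNHG8, 28.2 ± 4.1 for SNHG6, 22.3 ± 0.97 for ZFAS1 and 21.1 ± 1.7 for GAS5. SNHG8 and SNHG6 were within each other's spread, and the SD ranges of ZFAS1 and GAS5 overlapped. Below them stood SNHG16 at 14.8 ± 1.3, SNHG1 at 12.3 ± 0.62, SNHG7 at 5.14 ± 0.48, SNHG15 at 3.02 ± 0.25 and SNHG12 at 1.40 ± 0.29 RPKM. In R98W, SNHG5 was again the highest at 75.0 ± 5.8 RPKM, and SNHG6 at 38.7 ± 2.4, GAS5 at 37.6 ± 2.7 and SNHG8 at 37.2 ± 1.2 were not apart beyond their spread. GAS5 thus made up 15% to 16.1% of the counts of the 10 genes in WT and 18.5% to 19.3% in R98W, and SNHG16 went from 15.3% to 17.2% in WT to 11.6% to 14% in R98W. Exon lengths count every annotated isoform, so the RPKM of genes with many isoforms are low estimates.

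Library order was alike across these genes. WT replicate 3 was the lowest WT library for all 10. It was the lowest for 47.4% of other noncoding hosts, for 30 of 79 ribosomal protein genes and for 29.1% of all tested genes. R98W replicate 3 was the highest R98W library for 8 of the 10, for 59.5% of ribosomal protein genes, for 57.9% of other noncoding hosts and for 34.5% of all tested genes. Without WT replicate 3 the log2 differences were smaller, at 0.78 for GAS5, 0.50 for SNHG12 and 0.26 for SNHG8, and 9 genes stayed past the edgeR threshold.

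Called genes in this comparison depended on abundance, and the hosts were read against genes of their level. Of the tested genes from 8 to 64 CPM 21.2% were higher, and all 6 hosts in that class (SNHG1, SNHG6, SNHG7, SNHG8, SNHG15 and ZFAS1) were. Over 64 CPM 40.4% were higher, with GAS5 and SNHG5 but not SNHG16 among them, and 9.41% were lower. From 1 to 8 CPM 9.89% were higher, with SNHG12 among them. Of all tested lncRNA genes 3.96% were higher. Of 212 tested lncRNA genes with at least 5 CPM, 23.1% were higher and 23.1% lower, with a median log2 difference of 0.01, and leaving out the 10 hosts left 40 higher genes of 202. After a correction of each library for expression level, 9 hosts were again higher, against 14.6% of all tested genes, with a median of 0.46.

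**Figure D3:**
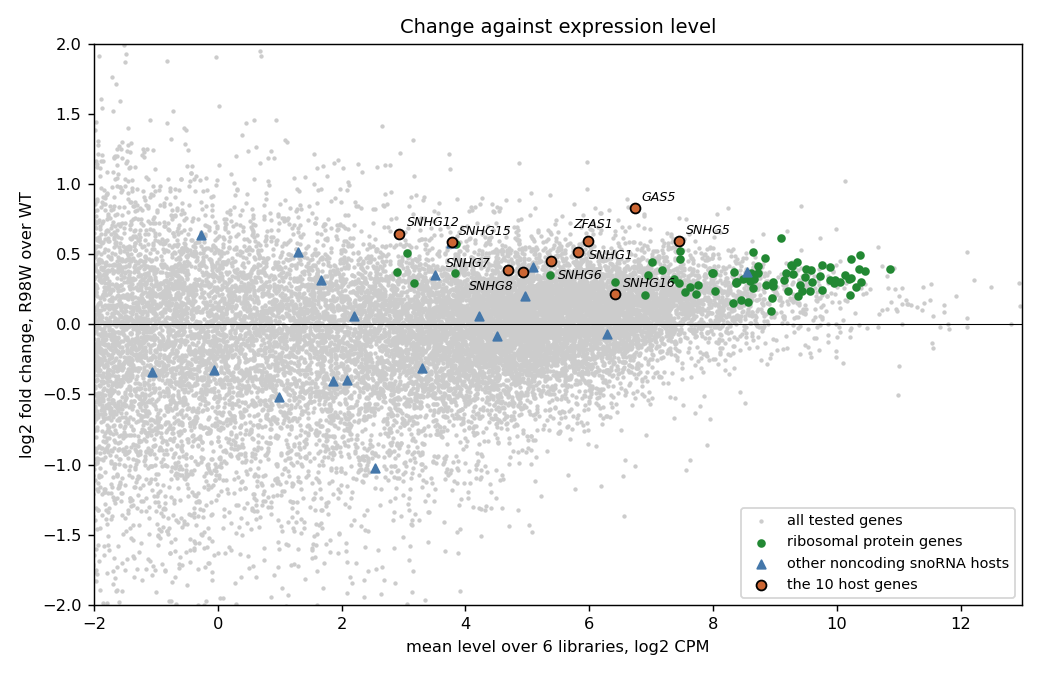
Log2 fold change of R98W over WT (vertical axis) against mean level in log2 CPM (horizontal axis) for all tested genes in grey, with ribosomal protein genes, other noncoding snoRNA hosts and the 10 hosts marked; 3145 genes lie outside the axes. The 10 hosts lie at 0.21 to 0.83, while the other noncoding hosts spread on both sides of 0.

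Other noncoding snoRNA hosts did not follow as a group, though many were less abundant than the 10 and the sets are not matched for level. Of 23 listed by name 19 were tested, with a median log2 difference of 0.06. Of these, 5 (26.3%) were higher and 3 (15.8%) lower, against 16.2% and 18.5% of all tested genes, and 11 were not called. The 3 lower genes were weakly expressed: SNHG30, SNHG10 and SNHG11 averaged 5.85, 3.64 and 4.25 CPM. From 1 to 8 CPM, 28.1% of all tested genes were lower and 9.89% higher, and SNHG26 at 2.47 CPM was among the higher. Above 8 CPM none of these hosts was lower, and SNHG17, SNHG29, SNHG32 and EPB41L4A-AS1 were higher. SNHG3, SNHG4, SNHG14, SNHG19 and DANCR, also above 8 CPM, were not called. EPB41L4A-AS1, host of SNORA13, rose from 10.9 ± 0.60 to 16.3 ± 0.37 CPM (SD, n = 3), a log2 difference of 0.58 (SE 0.09, edgeR adjusted p = 4.72e-05). SNHG17 rose by 0.41 and SNHG29 by 0.37 on the log2 scale, SNHG29 from 327 ± 22 to 424 ± 20 CPM. SNHG26 and SNHG32, the latter annotated as protein-coding in this release, were called higher at 0.52 and 0.36, though their groups overlapped.

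SNHG30 went the other way. Its level was 6.33, 7.89 and 9.32 CPM in WT and 3.70, 3.55 and 4.29 CPM in R98W, a log2 difference of -1.03 (SE 0.14, edgeR adjusted p = 1.58e-05). SNHG10 and SNHG11 were lower at -0.40 each, close to the threshold, with adjusted p of 0.0467 and 0.0491. Both calls ended once expression level was corrected for (adjusted p = 0.17 and 0.177), which left 1 lower gene. Without WT replicate 1 the counts were 6 higher and 5 lower. DANCR at -0.08 (adjusted p = 0.494) and SNHG3 at 0.06 (adjusted p = 0.68) were not called. A wider set was every lncRNA gene with an annotated snoRNA inside it on its strand, other than the 10. Of its 31 tested genes 4 (12.9%) were higher and 4 (12.9%) lower.

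The protein-coding TOP genes, which share the start motif, rose by less. Of 79 ribosomal protein genes 71 (89.9%) were higher and 0 lower, against 16.2% and 18.5% of all tested genes, with a median log2 difference of 0.32. Most of them lie over 64 CPM, where 40.4% of all tested genes were higher. The clearest was RPL12, a large-subunit protein, at 430 ± 27 CPM in WT and 661 ± 5.9 CPM in R98W (log2 difference 0.62, edgeR adjusted p = 6.37e-07), followed by RPL26 at 0.52. RPL12 and RPL17 were above the hosts' median, and 0 of the 79 were above GAS5. Without WT replicate 1, 56 were higher, against 15.2% of all tested genes. After the correction for expression level 25 were higher, against 14.6% of all tested genes, with a median of 0.14. The hosts kept 9 calls and a median of 0.46 there. Reads of ribosomal protein genes can also be shared with their many processed pseudogenes.

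TOP translation factors were higher in 10 (66.7%) and lower in 1 (6.67%) of 15 tested cases, against 16.2% and 18.5% of all tested genes. Their median was 0.26, and 3 were higher after the correction for expression level, against 14.6% of all tested genes. The initiation factor subunit EIF3E rose by 0.48 and the poly(A)-binding protein PABPC1 by 0.42 on the log2 scale. EIF3F was the lower member at -0.21, named after its value was seen. EEF1G was listed at 0 to 2 counts per library and not tested.

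Protein-coding genes that carry snoRNAs in their introns were called higher more often when on the TOP lists. Over 64 CPM, where most genes of the TOP lists lie, 40.4% of all tested genes were higher and 9.41% lower. A named list of 27 had 14 (51.9%) higher and 1 (3.70%) lower, against 16.2% and 18.5% of all tested genes, with a median of 0.21. The helicase EIF4A2 at 0.54 and the nucleolar GTPase GNL3 at 0.46 had the smallest p-values. CWF19L1 was lower at -0.64 (named after its value was seen). After the correction for expression level 9 of the 27 were higher, against 14.6% of all tested genes, and 4 were lower. Among all 239 tested protein-coding genes with an annotated snoRNA inside, the 32 on the TOP lists had 29 (90.6%) higher and 0 lower. The other 207 had 64 (30.9%) higher and 36 (17.4%) lower with a median of 0.10. After the correction for expression level these counts were 11 higher and 0 lower among the 32, and 41 higher and 52 lower among the 207.

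**Figure D4:**
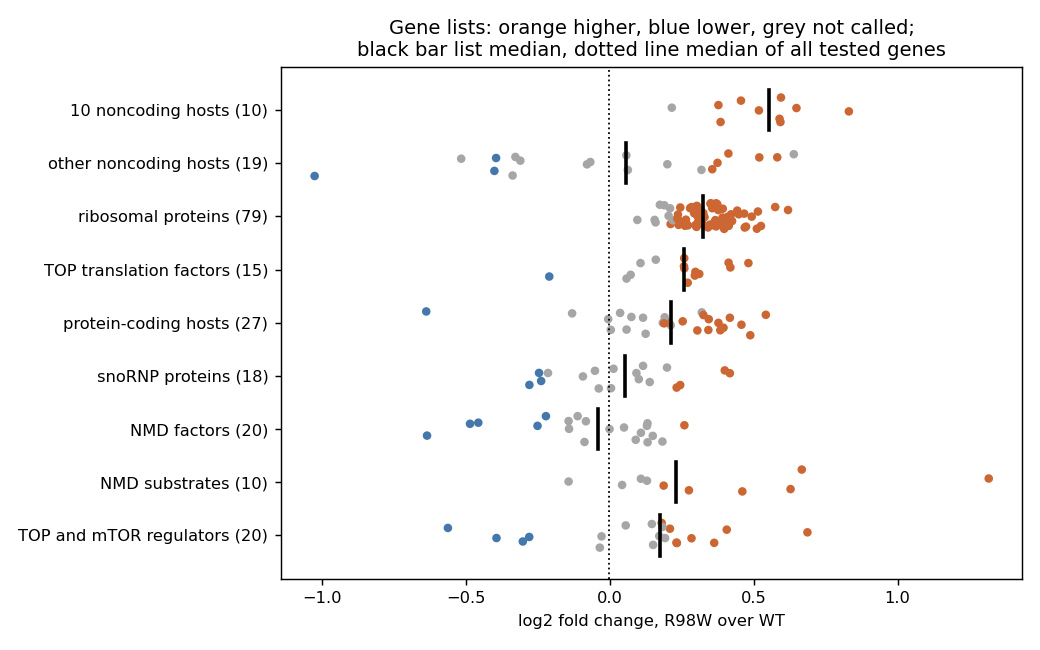
Log2 fold change of R98W over WT (horizontal axis) for every tested member of 9 gene lists; colours show the edgeR call, black bars the list medians and the dotted line the median of all tested genes. The 10 hosts have the highest list median at 0.55, ahead of the ribosomal protein genes at 0.32 and the other noncoding hosts at 0.06.

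The genes that pack snoRNAs into particles were called at about the background share. Of 18 snoRNP proteins and assembly factors 4 (22.2%) were higher and 3 (16.7%) lower, against 16.2% and 18.5% of all tested genes, with a median of 0.05. NOP56, a core box C/D protein and itself a snoRNA host, rose from 232 ± 12 to 309 ± 14 CPM (SD, n = 3), a log2 difference of 0.42 (edgeR adjusted p = 6.74e-05), and its partner NOP58 rose by 0.40. SNU13 and NOLC1 were also higher, and SHQ1, NUFIP1 and RUVBL1, which act in assembly, were lower, at -0.28, -0.25 and -0.24. Without WT replicate 1 NUFIP1 stood at -0.24 and was no longer called (adjusted p = 0.0622).

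Genes of the decay pathway that acts on host RNAs were mostly not called. Of 20 NMD factors 1 (5%) was higher (UPF3B) and 5 (25%) were lower (MAGOH, NBAS, XRN1, SMG6 and SMG8), against 16.2% and 18.5% of all tested genes, with a median of -0.04. MAGOH, a core protein of the exon junction complex, went from 22 ± 2.9 to 14.2 ± 0.48 CPM (SD, n = 3), a log2 difference of -0.64 (SE 0.09, edgeR adjusted p = 3.57e-05). NBAS had a log2 difference of -0.49. UPF1, UPF2, SMG1 and SMG5 were not called, though UPF1 was lower after the correction for expression level (-0.21, adjusted p = 0.0194). Of 10 genes known as NMD substrates, UPF1, SMG1 and SMG5 are also factors. Of the 10, 6 (60%) were higher and 0 lower, against 16.2% and 18.5% of all tested genes, with a median of 0.23. At an unadjusted edgeR p under 0.05, 0 were lower, but UPF1 stood at 0.0503 with all R98W libraries below all WT libraries. After the correction for expression level 5 were higher and 1 (UPF1) lower, with a median of 0.15, and ATF4 was no longer called (0.04, edgeR adjusted p = 0.661). ATF3 rose by 1.32 and UPP1 by 0.67 on the log2 scale, and GADD45A, DDIT3, TBL2 and ATF4 were also higher. Several of these, ATF4, ATF3 and DDIT3 among them, are also genes of the integrated stress response.

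Regulators of TOP translation also split. Of 20 genes 8 (40%) were higher and 4 (20%) lower, against 16.2% and 18.5% of all tested genes, with a median of 0.18. After the correction for expression level 5 were higher and 4 lower, with a median of 0.07. The kinase MTOR went down from 97.5 ± 2.5 to 66.0 ± 3.4 CPM (SD, n = 3), a log2 difference of -0.56 (SE 0.07, edgeR adjusted p = 2.71e-06), and RPTOR, TSC1 and TSC2 were lower as well. RICTOR, the scaffold of the other mTOR complex, rose from 91.1 ± 8.5 to 147 ± 9.7 CPM, a log2 difference of 0.69 (edgeR adjusted p = 1.37e-06). Also higher were RHEB at 0.41, EIF4EBP1 at 0.36, TIA1 at 0.28, MLST8 at 0.23, CNBP at 0.23, EIF4EBP2 at 0.21 and TIAL1 at 0.18. LARP1, the TOP-binding repressor, was not called. These are RNA levels, and activity of the pathway was not measured.

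Genes that overlap the hosts or face them from the other strand mostly were not called. Of 10 tested neighbours edgeR called 0 higher and 2 lower, against 16.2% and 18.5% of all tested genes. At an unadjusted edgeR p under 0.05, 1 (SLC3A2) was higher. ZBTB37, a zinc finger gene on the other strand, overlaps GAS5. Its start lies 800 bases from the outermost annotated GAS5 start, which is not the GAS5 start printed above. ZBTB37 went from 16.6 ± 0.51 to 13.6 ± 0.34 CPM (SD, n = 3), a log2 difference of -0.28 (edgeR adjusted p = 0.0128). FAM69B, which shares 1094 exon bases with SNHG7, had -0.67 (edgeR adjusted p = 0.00115). ZNFX1 on the far side of the ZFAS1 promoter had 0.06 (SE 0.07, edgeR adjusted p = 0.552), and TRNAU1AP beside SNHG12 had -0.08 (SE 0.11, edgeR adjusted p = 0.625). SLC3A2, an amino acid transporter subunit 188 bases from the outermost annotated start of SNHG1, had 0.18 (SE 0.07, edgeR adjusted p = 0.052). SLC3A2 was called higher by DESeq2 (adjusted p = 0.0325), limma-voom (adjusted p = 0.0414), edgeR with DESeq2 size factors (adjusted p = 0.0402) and edgeR with a GC correction (0.27, adjusted p = 0.00107), and it stood at -0.03 after the correction for expression level. ZBTB37 was no longer called without R98W replicate 2 (-0.27, adjusted p = 0.0511) or after the correction for expression level (-0.22, also 0.0511). Strand use in the counting is not stated, so reads on exon bases shared with an opposite gene, which for ZFAS1 and ZNFX1 number 249 and for SNHG16 and AC015802.6 number 1639, cannot be assigned to a strand.

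Ratios of host to neighbour counts within each library need no scaling, and they were higher in R98W for the 4 pairs computed. GAS5 over ZBTB37 was 4.36, 5.25 and 4.30 in WT and 9.36, 9.73 and 11 in R98W. ZFAS1 over ZNFX1 was 0.345, 0.395 and 0.390 in WT and 0.515, 0.515 and 0.599 in R98W. SNHG12 over TRNAU1AP ran from 0.587 to 0.953 in WT and from 1.08 to 1.33 in R98W, and SNHG1 over SLC3A2 from 0.0764 to 0.0792 and from 0.0981 to 0.10. The groups did not overlap in any of these 4 ratios, each with an exact two-sided permutation p of 0.1, the smallest possible here, and 0.1 after adjustment. In these same counts the 4 hosts were already called higher and their neighbours were not, so the separations add no further support.

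**Figure D5:**
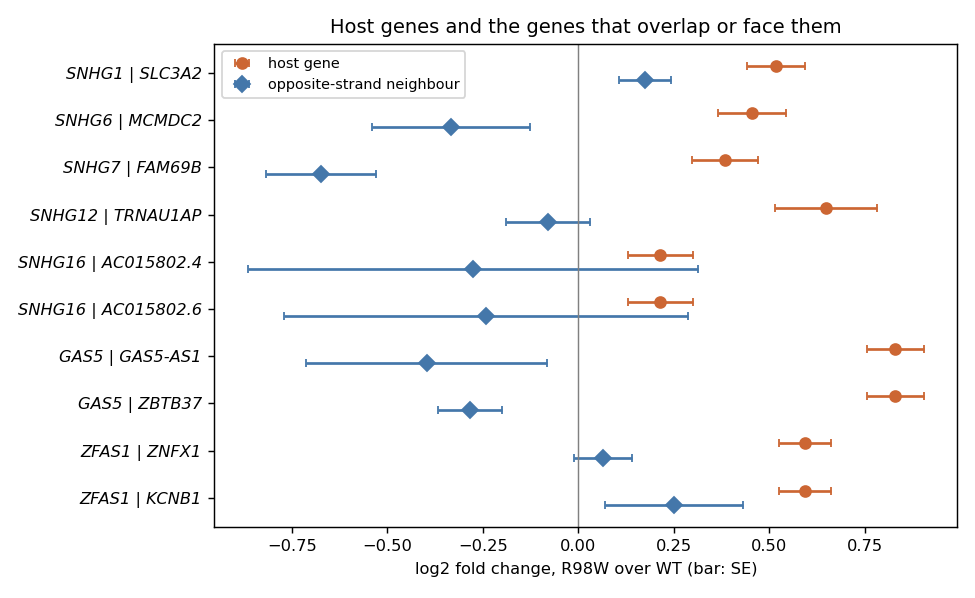
Log2 fold change of R98W over WT with SE (horizontal axis) for each host gene (circles) and each tested opposite-strand gene that overlaps it or starts within 1000 bases of it (diamonds). Every host lies to the right of its neighbour, with wide errors for the weakly expressed GAS5-AS1, AC015802.4 and AC015802.6.

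The snoRNAs inside the hosts were almost absent from the table. GENCODE release 29 places 26 snoRNA genes inside 9 of the hosts and none inside GAS5, with some loci entered more than once, and 21 of the 26 had 0 counts in all 6 libraries. Of the 22 that lie on an annotated exon of the host, such as a retained intron, 21 had 0 counts, while all 4 that do not (SNORD99, SNORD1B, SNORD12B and SNORD12C) had some. SNORD12B of ZFAS1 had 37, 41 and 20 counts in WT and 49, 44 and 53 in R98W, which did not pass the test (log2 difference 0.63, edgeR adjusted p = 0.186). SNORD12C had a log2 difference of 0.61 (adjusted p = 0.428) and SNORD99 had -0.32 (adjusted p = 0.74). How reads on both a snoRNA and a host exon were counted is not stated, so a 0 here does not give the level of a snoRNA. Mature snoRNAs carry no poly(A) tail.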

How the data were processed

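The authors deposited raw read counts per gene for 6 libraries. Named in the submitters' processing notes, with no roles, are HISAT2 2.1.0, CASAVA 1.8 and HTSeq 0.11.3, and the build hg38. The annotation and strand setting are not stated there. Genes were named from GENCODE release 29. EdgeR 4.0.16 in R 4.3.3 (filterByExpr, minimum count 10 and total 15; TMM; quasi-likelihood test) compared R98W with WT without covariates. Alternatives were DESeq2 1.42.0 size factors and test, upper-quartile scaling, no filter, at least 50 counts in 3 libraries, limma-voom (limma 3.58.1), the replicate block, each library left out, a threshold of 0.01, and loess corrections for expression level and GC content. Named genes were the 10 hosts, the other noncoding hosts, tested neighbours and the 2 called genes of smallest p in each other list; further list genes were named after their values were seen. The members and lists were chosen with earlier results of these data known. The test was checked on simulated counts. Replicates differed beyond counting noise (chi-square per degree of freedom 16.6 to 42.2).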

Additional observations from a re-analysis of the deposited data

How the results depend on the processing

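The count of 9 higher and 0 lower host genes ran from 9 to 10 higher and stayed at 0 lower over all 16 alternatives, each library left out among them. Each of the 9 called genes kept its direction and its side of the threshold in the 15 other fits, with log2 fold changes from 0.26 (SNHG8 without WT replicate 3) to 0.89 (GAS5 without WT replicate 2). SNHG16 was called higher with DESeq2 size factors (0.22, edgeR adjusted p = 0.0488), with no filter (0.21, 0.0202), and without R98W replicate 1 or WT replicate 1 (0.32 and 0.25); the cause was not tested. Over all tested genes, 3364 were higher and 3839 lower, and leaving out 1 library gave 2340 to 3268 higher and 3060 to 3944 lower. At an adjusted p of 0.01, 2143 genes were higher, fewer by construction. Same-numbered WT and R98W libraries did not deviate together (correlations of 0.006, -0.039 and -0.037), and not every library correlated best with its own number. With the replicate block 9 hosts were higher, SNHG16 stood at an adjusted p of 0.0502, and 3205 genes were higher and 3678 lower. Counts per library ran from 452 for SNHG12 to 23995 for SNHG5.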
